A study of Homo sapiens and Mus musculus with 18 samples.

Results

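The gut mesothelium library is 1 of 4 mouse libraries in a series of 18 samples, and it was set against the heart, liver and lung libraries, with 1 library per organ. It was chosen by its label and column name, and gene IDs entered the comparison where they reached 5 CPM (counts scaled to a library of 1000000) or more in at least 1 of the 4 organs. That left 13347 of 37991 mouse Ensembl gene IDs. The series mainly profiles mesothelium made from human embryonic stem cells, and the mouse organs stand beside it as mesothelium formed in the embryo.

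All 4 libraries came from Wt1creERT2/+ Rosa26tdT/+ embryos, in which a tamoxifen-inducible Cre sits in the Wt1 locus and a CAG-driven tdTomato reporter is switched on by recombination. Pregnant dams received 300 µl of tamoxifen at 10 mg/ml in corn oil from embryonic day E12.5, on 3 days in a row, and organs were taken at E15.5. The column names of the count table give E14.5 and number the organs as replicates of one set, so the age of the embryos differs between the label and the table. The surface of each intact organ was digested with collagenase IV and trypsin, and tdTomato-positive cells were sorted. The labels do not say how many embryos or litters went into a library. No organ lacked the Cre allele, so the heterozygous Wt1 locus and tamoxifen are shared by every group.

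The mesothelium is the single layer of epithelial cells that covers the organs of the body cavities and lines their walls. In the embryo it expresses Wt1, and some of its cells leave the surface and give rise to fibroblasts and vascular smooth muscle inside the organ. The tdTomato mark is permanent, so the sorted fraction holds cells that expressed Wt1 after tamoxifen and their descendants, whatever they had become. The gut mesothelium overlies the smooth muscle wall and the enteric nervous system.

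The gut label was not tested against marker genes. The tables that pair gene IDs with symbols cover human genes, and 0 of the 37991 mouse IDs had a symbol in them. The markers proposed for the gut (Nkx2-3, a homeobox factor of gut and spleen mesenchyme, Slit2, a guidance ligand, and Hoxd8, a homeobox factor of the trunk) and the defining markers of mesothelium, smooth muscle, neurons, gut epithelium, blood and the other tissues were therefore not looked up. Genes are given by ID, 2 higher and 2 lower in the gut, and the rest as counts.

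The gut library held 28752101 counts, against 21541758 to 31502905 in the other organs. At least 1 count was recorded for 24180 IDs in gut and for 22914 to 23833 in the other organs, and 11417 IDs had none in any organ. The 10 most counted IDs took 7.01% of the gut counts, below the 9.13% to 10.02% of the other libraries. CPM used library sizes scaled by TMM, which weights out genes that differ strongly between libraries. The gut factor was 1.06, the highest of the 4.

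Most genes lay close to the mean of the other organs in gut. Of the 13347 IDs, 11763 (88.1%) were within 2-fold of that mean, 940 (7.04%) differed by 2-fold to under 4-fold, and 644 (4.83%) differed by 4-fold or more. The gut value fell inside the span of heart, liver and lung for 7242 IDs (54.3%). The median log2 ratio of gut to the mean was -0.06, where ratios carry a pseudocount of 0.5 CPM and so understate the difference of low genes. With 1 library per organ there is no replicate spread to set these differences against, so they describe 4 libraries, no test was made, and organ, litter and dissection cannot be told apart.

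More genes were lower than higher in gut against the arithmetic mean, but not against the geometric mean. At a fold of 4 against the mean of the other 3 organs, 179 IDs were higher (1.34% of those compared) and 465 were lower (3.48%). With the geometric mean of the 3 organs, which weights a single high organ less, 222 were higher and 181 lower. Against the arithmetic mean the excess of lower genes was also seen in each other organ measured in the same way. Heart had 421 higher (3.15%) and 605 lower (4.53%), liver 289 (2.17%) and 366 (2.74%), and lung 117 (0.877%) and 531 (3.98%). A gene high in 1 organ raises the mean of the others by itself, which lowers every remaining organ against that mean.

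**Figure D1:**
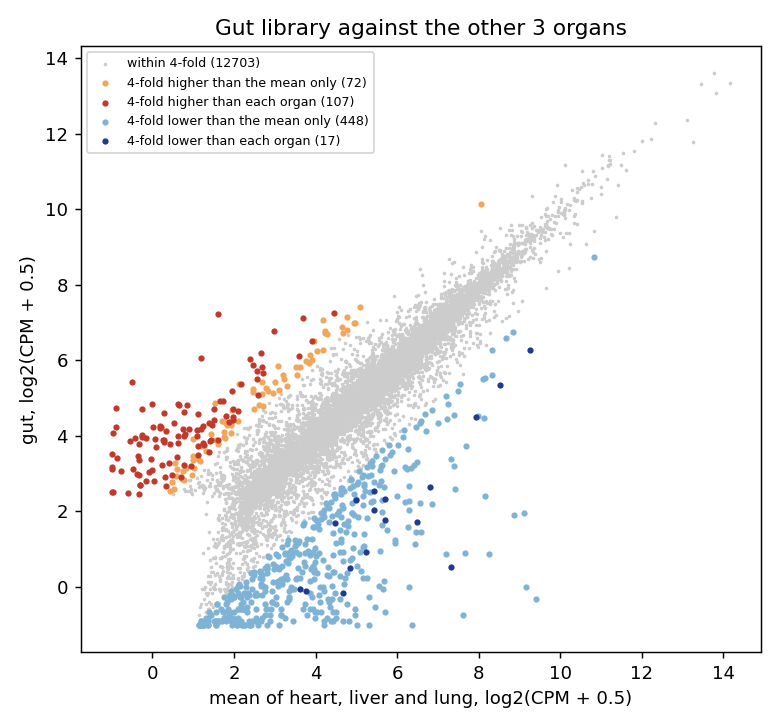
Each point is 1 of 13347 gene IDs, with the mean CPM of heart, liver and lung on the x axis and gut CPM on the y axis, both as log2(CPM + 0.5). Red points mark the 107 IDs at least 4-fold above each other organ and dark blue points the 17 at least 4-fold below each, while orange and light blue points pass the fold against the mean only.

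The 2 directions differed in how far they held against every organ, and the arithmetic mean by itself favours this. A gene 4-fold above that mean must exceed each organ in it, so gut was the highest organ for all 179. A gene 4-fold below it can be so through a single high organ. The same difference between directions was seen in heart, liver and lung. Of the 179 higher IDs, 107 (0.802% of those compared) were at least 4-fold above each of heart, liver and lung, and 175 were at least 2-fold above each. The same fold above each other organ was reached by 286 IDs in heart (2.14%), 228 in liver (1.71%) and 63 in lung (0.472%). Of the IDs lower in gut, 17 (0.127%) were at least 4-fold below each other organ, against 118 in heart (0.884%), 16 in liver (0.12%) and 17 in lung (0.127%), and 78 of the 465 were at least 2-fold below each. Gut was the lowest of the 4 organs for 255 of the 465, and for 3333 of all 13347 IDs. The 465 were chosen for a low gut value, which by itself raises that share. With fewer organs to pass, 143 IDs without heart, 161 without liver and 149 without lung were above both remaining organs. Below both were 39 without heart, 40 without liver and 76 without lung. The highest level of the 465 was in heart for 217 IDs (46.7%), in liver for 195 (41.9%) and in lung for 53 (11.4%). Over all 13347 IDs the highest of the 3 was heart for 36.1%, liver for 32.8% and lung for 31.03%.

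**Figure D2:**
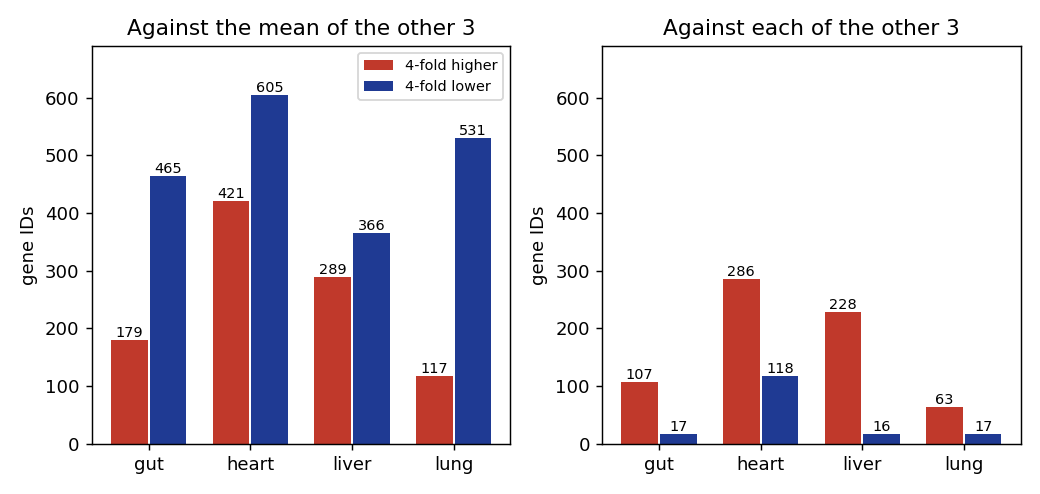
Bars count the gene IDs at least 4-fold higher or lower in each organ than the mean of the other 3 organs (left) and than each of them (right), with the count above each bar. Gut had 107 IDs above every other organ, between lung with 63 and liver with 228, and 17 below every other organ, like lung with 17 and liver with 16.

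For the 179 higher IDs, the next highest organ was liver for 84 (46.9%), lung for 57 (31.8%) and heart for 38 (21.2%). Against a fold of 4 in each single pairing, gut was higher than heart for 470 IDs (3.52%), than liver for 270 (2.02%) and than lung for 268 (2.01%). It was lower than heart for 520 (3.90%), than liver for 365 (2.73%) and than lung for 173 (1.30%). Lung was the organ with the fewest IDs apart from gut by 4-fold or more, at 441, against 635 for liver and 990 for heart. This order was not particular to gut: heart was also apart from liver for 1026 IDs and from lung for 942, and liver was apart from lung for 579, fewer than from gut. Across the 13347 IDs, which are not independent replicates, the Spearman correlation with gut was 0.942 for lung, 0.916 for liver and 0.881 for heart, while that of liver with lung was 0.922. The median absolute log2 difference from gut was 0.20 for lung, 0.27 for liver and 0.29 for heart. Lung was the shallowest library, and the part of depth in these orders was not tested.

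The genes raised in gut were mostly of low or middle level. Over all 13347 IDs the median in gut was 29.3 CPM. The 179 higher IDs had a median of 18.4 CPM in gut and 1.80 CPM as the mean of the others, and together took 0.734% of gut counts, against 0.0690% in heart, 0.135% in liver and 0.114% in lung. Of them, 81 reached 20 CPM in gut and 16 reached 100 CPM. The 465 lower IDs had a median of 0.817 CPM in gut and 15.1 CPM in the others, and took 0.236% of gut counts, against 2.57% in heart, 2.34% in liver and 1.02% in lung. In 38 of them the mean of the other organs reached 100 CPM. By the mean level over the 4 organs, 1.82% of the 4057 IDs from 5 to under 20 CPM were higher in gut and 4.44% lower. Among the 6121 IDs from 20 to under 100 CPM these shares were 0.474% and 1.93%, and among the 197 IDs at 500 CPM or more 0 were higher and 2 lower. The 974 IDs with a mean under 5 CPM are left out of this order, since they entered only through an organ where they were high. They hold 75 of the 179 higher IDs and 134 of the 465 lower IDs. The medians and shares of counts above include them, so the filter has a part in those low levels.

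A few genes were at or near 0 on one side. Of the 107 IDs above every other organ, 4 had 0 counts in all of heart, liver and lung, and 9 had no more than 3 counts in each. Those 4 are all such IDs among the 13347. All 9, these 4 among them, entered through gut alone, so the filter and the fold place them here. A count of 0 allows a level of up to 0.100 CPM in heart, 0.108 in liver and 0.142 in lung, taking 3 counts as the limit and counting error alone. Of the 465 lower IDs, 29 had 0 counts in gut, where the limit is 0.0981 CPM, and 81 had no more than 3. Those 29 are likewise all the IDs at 0 in gut among the 13347, and the filter and the fold place them here. All 81 entered only through another organ, so the filter has a large part in placing them here. How many of the 13347 IDs had no more than 3 counts in gut was not counted. In bulk libraries such as these, fewer cells of a type and less RNA per cell cannot be told apart.

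The 2 highest and the 2 lowest ratios were taken among 37 IDs at 20 CPM or more in gut and at least 4-fold above each other organ, and among 15 IDs with a mean of 20 CPM or more elsewhere and at least 4-fold below each. The IDs are not paired with symbols here, so the role of these genes is not given. Their place above or below every other organ was set by this choice. The intervals below use the same counts that chose the IDs, so they give counting error and no separate support.

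ENSMUSG00000044220 was counted 1300 times in gut, 16 times in liver, 1 time in heart and 0 times in lung. These counts are 42.5 CPM in gut (95% exact Poisson interval 40.2 to 44.9), 0.578 in liver (0.331 to 0.939) and 0.0335 in heart (0.000848 to 0.187). Lung is under the limit of 0.142 given above, and the upper bound of its 95% exact Poisson interval is 0.174. Gut stood above every other organ, and liver was the next. The log2 ratio of gut to the mean of the others was 5.93, and the rate in gut was 197 times that in the other libraries pooled (95% exact binomial interval 122 to 339).

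ENSMUSG00000000938 was counted 809 times in gut, 2 times in lung, 1 time in heart and 0 times in liver. Its level was 26.4 CPM in gut (24.7 to 28.3), and the upper interval bounds were 0.341 in lung, 0.187 in heart and 0.133 in liver. By the limit of 3 counts, liver is under 0.108. The intervals of lung and heart overlapped and held the limit for liver, and gut lay above all of them. The log2 ratio was 5.63. With 3 counts outside gut, the ratio of rates was 693 with a wide counting interval of 236 to 3370.

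ENSMUSG00000031965 was the furthest below the other organs among the IDs taken. It was counted 29 times in gut, 150 times in lung, 1988 times in liver and 11854 times in heart. The levels were 0.948 CPM in gut (0.635 to 1.36), 7.09 in lung (6.0 to 8.32), 71.9 in liver (68.7 to 75.1) and 397 in heart (390 to 404). No 2 organs overlapped, and the order from gut to heart covered a wide range. The log2 ratio of gut to the mean of the others was -6.78 and to the lowest of them, lung, -2.39. Without the heart library the ratio to the mean of liver and lung was -4.79.

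ENSMUSG00000002100 was counted 12 times in gut, 76 times in lung, 107 times in liver and 2001 times in heart. The levels were 0.392 CPM in gut (0.203 to 0.685), 3.59 in lung (2.83 to 4.50), 3.87 in liver (3.17 to 4.67) and 67.03 in heart (64.1 to 70.03). Lung and liver overlapped within counting error, gut lay below both and heart above. The log2 ratio was -4.83 to the mean of the others and -2.20 to lung. Without the heart library the ratio to the mean of liver and lung was -2.25.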

How the data were processed

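RNA from sorted mouse cells was enriched for poly A and sequenced as paired ends, per the labels' protocols. The authors deposited whole-number counts per Ensembl gene ID in 1 table. Among the tools named in the submitters' processing notes are TopHat2 2.0.13, Bowtie2 2.2.9, Subread with featureCounts (1.4.2), whose roles those notes leave out. The build those notes name is hg19, a human one. For the mouse build, annotation release and strand setting, nothing is stated in the sources used here, so overlapping genes on opposite strands are uncertain. Columns were matched to samples by organ.

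From the counts, TMM factors were computed with edgeR 4.0.16 in R 4.3.3 (no edgeR test was run), and CPM, ratios and intervals in Python 3.11.15 with scipy 1.17.1. Genes at 5 CPM or more in at least 1 organ entered, with a pseudocount of 0.5 CPM and a fold of 4. Intervals and the limit of 3 counts cover counting error only. The 2 IDs named in each direction were those with the most extreme ratio that also passed a fold of 4 against each organ and 20 CPM in gut (or as the mean elsewhere). The code was tested on simulated data. Alternatives were plain CPM, DESeq2 1.42.0 size factors, other pseudocounts, filters and folds, the geometric mean, and leaving out each other organ. The 28 gene lists prepared by symbol were not used, since no mouse ID had a symbol. The members and lists were chosen with earlier results of these data known. Human samples were not used here.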

Additional observations from a re-analysis of the deposited data

How the results depend on the processing

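The counts of IDs past the fold against the mean moved by less than 1.5 times with plain CPM, DESeq2 size factors, a pseudocount of 0.1 CPM, a filter of 10 CPM or none, and without heart, liver or lung. The IDs themselves changed more. Of the 465 lower IDs, 267 remained among the 324 lower without heart and 294 among the 386 lower without liver. Without lung, 423 of the 465 remained. Of the 179 higher IDs, 154 remained without heart, 167 without liver and 165 without lung. Plain CPM moved the median log2 ratio by 0.12 and gave 201 higher and 425 lower, against 179 and 465. The fold itself set the size: a fold of 2 gave 517 higher and 1067 lower against the mean, 289 above and 119 below each organ, and a fold of 8 gave 71, 207, 40 and 1. A pseudocount of 2 CPM gave 118, 254, 60 and 6 in the same order, and one of 0.1 CPM gave 31 below each organ. With the geometric mean 222 were higher and 181 lower. The count of 17 below each organ became 39 without heart, 40 without liver and 76 without lung, where fewer organs had to be passed. Likewise the 107 above each became 143 without heart, 161 without liver and 149 without lung. An alternative chosen after seeing the data required the fold between the bounds of the counting intervals: 132 higher and 323 lower remained against the mean, 69 above each organ and 7 below each. The 4 IDs kept their direction in each of 8 alternatives, which was fixed by choosing them at least 4-fold from every organ. The size of their ratios was less stable. Of their values under these alternatives, 16 moved outside the counting interval of the ratio and 16 stayed within it. The log2 ratio of ENSMUSG00000002100 ran from -5.66 to -2.25. No paired analysis was possible because each organ had 1 library. Leaving out replicates within an organ was likewise not possible.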
